A study of Mus musculus with 2 samples.

Results

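This account sets the Atoh1 descendants that lacked Lgr5-EGFP against those that carried it, among sorted cells of the mouse small intestinal epithelium. The mice carried 3 alleles, Atoh1-crePGR, Lgr5-EGFP-IRES-creERT2 and Rosa26-tdTomato, and the same alleles and drug were shared by every population. RU486 was given intraperitoneally on 5 consecutive days to activate the recombinase, and cells were sorted 20 days after recombination. Cells with EGFP and tdTomato are called double positive, cells with tdTomato but no EGFP are called tdTomato only, and cells with EGFP but no tdTomato are called EGFP only. The sort was run on pooled cells of 4 mice, which makes each population 1 biological replicate. The double-positive RNA carried Cy3 on the first of 2 arrays and the tdTomato-only RNA carried Cy3 on the second. EGFP-only RNA carried Cy5 on both, and the labels do not say whether it was 1 extract split over both.

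For every probe, the log2 ratio of the first array (double positive over EGFP only) was subtracted from that of the second (tdTomato only over EGFP only), so that the shared EGFP-only channel cancels. This log2 difference is above 0 where the tdTomato-only population was brighter. Members are named, non-control probes brighter than the mean of the blank spots plus 2 SD in all 4 channels and not at the scanner ceiling in both Cy3 channels. There were 11437 such probes for 11318 genes, out of 23473 probes and 16400 named genes on the array. With 1 array per population no difference below has a replicate error, and no test or p-value is given. A gene is called higher at a log2 difference of 1 or more and lower at −1 or less, which is 2-fold. Intensities below are spot values before normalization, in arbitrary units. Cy3 values may be set against Cy3 values, but Cy3 is set against Cy5 only through the normalized log2 ratio to EGFP-only cells.

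Lgr5 encodes a receptor for R-spondins that amplifies Wnt signals, and it marks the crypt base columnar stem cells that renew the intestinal epithelium. Atoh1 is the transcription factor that commits progenitors to the secretory lineage, from which goblet, Paneth and enteroendocrine cells are usually drawn. Tuft cells are often placed there too, though their need for Atoh1 is disputed. Secretory progenitors can return to the stem cell state, and a Cre driven by Atoh1 marks any such cell together with all of its later progeny, absorptive cells included. The model has limits that bear on both populations. Lgr5-EGFP knock-in alleles of this kind are known to be silenced in patches of crypts, so that a cell without EGFP can still express Lgr5. Tagged cells are defined by past Cre activity, not by current Atoh1, and Atoh1 itself was not analysed here.

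The share of all probes above background lay between 67.0% and 77.1% in the 4 channels, and median intensities lay between 98.2 and 108 arbitrary units. EGFP-only cells were read out on each array, and the log2 values of that repeat differed with an SD of 0.085 across the 11437 member probes, with 3 probes at least 2-fold apart. That figure is for Cy5 alone, after a further normalization between arrays, and measures neither Cy3 nor the spread between mice. Whether it includes separate labelling is unknown. By quartile of intensity the SD ran from 0.046 in the dimmest to 0.115 in the brightest. Epithelial markers were bright in both populations. Epcam, an epithelial adhesion protein, read 7294 in double-positive and 7677 in tdTomato-only cells (intensity), and the log2 difference was −0.09. Vil1, the brush border protein villin, read 3003 and 3617 in the same order, with a log2 difference of 0.24. In bulk samples, fewer cells of a type and less RNA per cell cannot be told apart, and this holds for every gene below.

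Most genes differed little between the 2 descendants. The log2 difference had a median of −0.02 and an SD of 0.29, and 10811 genes (95.5%) lay within 1.5-fold. Of 11318 genes, 93 (0.822%) were at least 2-fold higher in the tdTomato-only population and 32 (0.283%) at least 2-fold lower, 1.1% in all. Thus 74.4% of the genes past 2-fold were higher. That split depended on how the background was handled. It was 204 higher and 161 lower (55.9% higher) with the blank mean subtracted and 170 higher and 141 lower (54.7%) in the authors' deposited table. With a smaller normexp offset of 10 it was 131 and 66 (66.5%). Among the genes counted, 76 of the 93 and 26 of the 32 stayed past 2-fold in each of 8 other settings that kept the same genes, and none changed sign. In the reported setting, 2 higher and 0 lower probes past 2-fold lay in the dimmest quartile of the member probes. The brightest quartile held 39 and 13. The normexp offset is added to every intensity and pulls the log ratios of dim spots toward 0. The SD of the log2 difference was 0.14 in the dimmest quartile and 0.37 in the brightest. These counts therefore cannot show whether few dim genes differed.

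**Figure D1:**
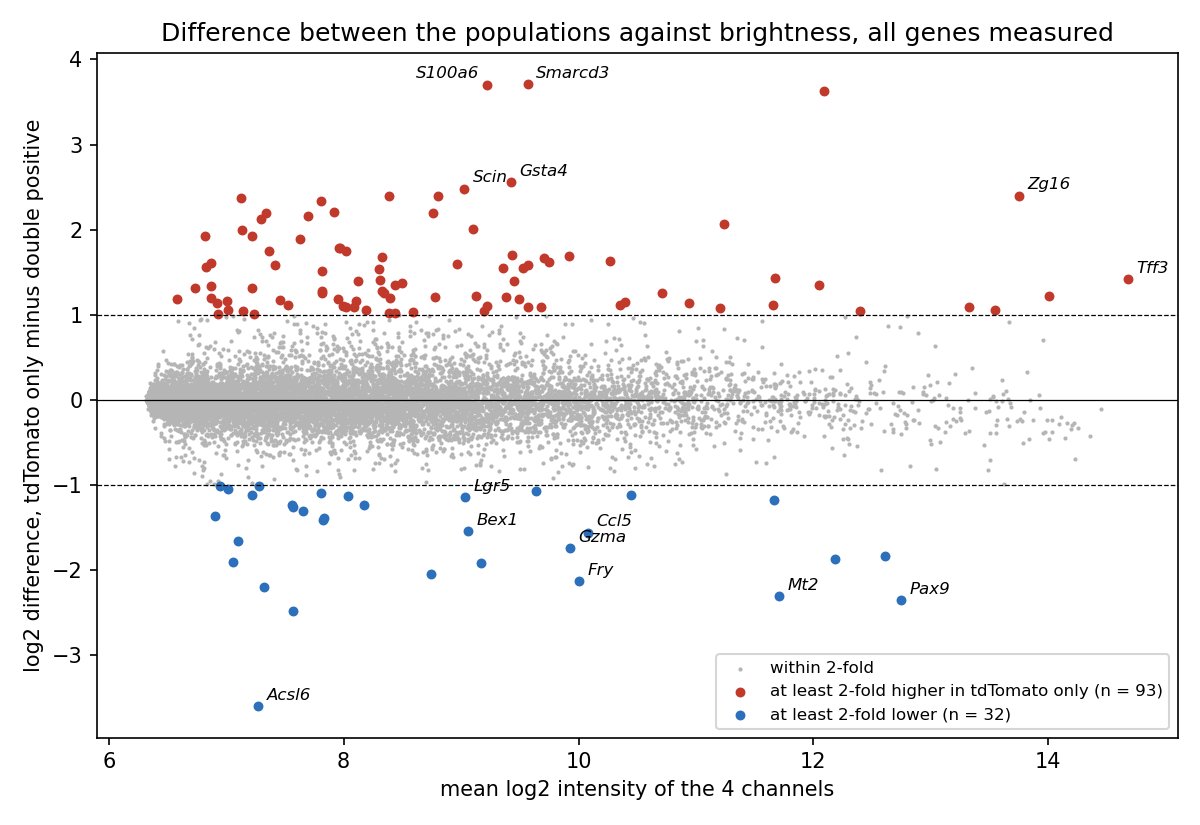
Each point is a gene. The horizontal axis is the mean log2 intensity of the 4 channels, the vertical axis the log2 difference (tdTomato only minus double positive), and the dashed lines mark 2-fold. The 93 genes at least 2-fold higher (red) reach 3.71 for Smarcd3, and the 32 at least 2-fold lower (blue) reach −3.61 for Acsl6.

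The threshold was not a natural gap. Hsd17b2, a steroid dehydrogenase, lay just inside at 1.01 (0.94 in its lowest setting), and Tbx3, a T-box transcription factor, just outside at 0.9992. On the other side, Nkg7 was just inside at −1.02 and the collagen gene Col16a1 just outside at −0.99. Both arrays share the EGFP-only reference, so the single-array values are given side by side and not as separate evidence. The 93 higher genes had a median log2 ratio to EGFP-only cells of 0.51 in double-positive and 2.08 in tdTomato-only cells. For the 32 lower genes these medians were 2.72 and 0.96. The 45 gene lists drawn up for this tissue held 28 of the higher genes and 10 of the lower ones. The share of all 11318 genes held by the lists was not computed, so whether these counts exceed it was not tested.

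Lgr5 was lower in the population sorted as lacking Lgr5-EGFP, which is the direction of the gate. Its probe read 572 in double-positive and 282 in tdTomato-only cells, against 699 and 666 in the EGFP-only channel of the first and second array (intensity). The log2 ratio to EGFP-only cells was 0.26 for double-positive and −0.89 for tdTomato-only cells. Between the 2 descendants the log2 difference was −1.14, or 2.21-fold lower. The tdTomato-only signal still exceeded the background limit of 85.4 intensity units for its channel, so Lgr5 was still measured there.

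Other genes of the crypt base stem cells lay mostly on the same side as Lgr5. Of 36 listed genes 31 were measured, 25 of them below 0, against 54.3% of all genes, and the list median was a log2 difference of −0.51 (all genes −0.02). Lgr5 and Slc12a2, the basolateral sodium-potassium-chloride cotransporter, were at least 2-fold lower. Slc12a2 read 2927 in double-positive and 1366 in tdTomato-only cells (intensity). Its log2 ratio to EGFP-only cells was −0.03 in double-positive and −1.22 in tdTomato-only cells, and the log2 difference was −1.18.

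Olfm4, a secreted stem cell marker, was already below EGFP-only cells in double-positive cells. It read 3786 and 2520 in double-positive and tdTomato-only cells (intensity), at log2 ratios to EGFP-only cells of −1.56 and −2.37, and the log2 difference was −0.81. Tnfrsf19, a Wnt target receptor also called Troy, had a log2 difference of −0.88. Kcnq1, a potassium channel, had −0.83, and the proteoglycan gene Sdc4 −0.81. Ascl2, the transcription factor that maintains the stem cell state, was closer at −0.51. Smoc2, another stem cell marker, stood at −0.37. Of the 6 members above 0, Ephb3 and Ephb2, receptors that position cells along the crypt, lay highest. Ephb3 was at least 2-fold higher in tdTomato-only cells (intensity 1427 against 679, log2 difference 1.04), and it dropped just under 2-fold, to 0.96, in the authors' deposited table. Ephb2 had a log2 difference of 0.49.

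Secreted goblet cell products held more genes past 2-fold than most lists on the higher side. Goblet cells make the mucus layer, and their granules hold the mucin Muc2 with trefoil peptides, lectins and proteases. Of 27 listed mucus and granule genes 19 were measured, 7 were at least 2-fold higher and none lower, with 16 of 19 above 0 (45.7% of all genes were). The list median was 0.55 on the log2 scale, 1.47-fold. The median was 0.34 when probes at the ceiling in either Cy3 channel were left out, or when no filter on background was set. The summed Cy3 intensity of the measured members was 172610 in double-positive and 321227 in tdTomato-only cells. Most of that rise came from Zg16, Clca1, Tff3 and Agr2, so it does not describe the list as a whole. Zg16 and Tff3 stood at the ceiling in tdTomato-only cells, which truncates the second sum.

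Clca1, a secreted metalloprotease that processes mucus and was formerly called gob-5 or Clca3, had the largest measured difference, beside saturated members whose true difference is unknown. It read 3873 in double-positive cells and 43457 in tdTomato-only cells (intensity). Its log2 ratio to EGFP-only cells was 2.17 and 5.80, and the log2 difference of 3.63 was a 12.4-fold excess. The log2 difference was 2.89 under quantile normalization of the 4 channels. The value rests on the probe annotated Clca3, which RefSeq lists as an older name of Clca1. The array also has probes annotated Clca1, a symbol that once named Clca3a1, and these were kept apart with a log2 difference of −0.64. Zg16, a lectin of the mucus layer, read 14715 in double-positive cells and stood at the scanner ceiling in tdTomato-only cells, so its log2 difference of 2.40 understates the gap. Under quantile normalization the Zg16 value was 1.52. Tpsg1, a membrane-anchored tryptase, read 384 and 1968 (intensity), with a log2 difference of 2.39.

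Tff3, the intestinal trefoil factor, was also saturated in tdTomato-only cells and had a log2 difference of 1.42 (intensity 28416 in double-positive cells). Agr2, the disulfide isomerase needed to fold mucin, read 16970 and 36944 and had a log2 difference of 1.05. It fell short of 2-fold, at 0.63, under quantile normalization of the 4 channels. Lypd8, a secreted protein that binds flagella, had 1.08, and Klk1, a kallikrein treated below, completed the 7. Muc2 itself was dim, at 142 and 206, and had a log2 difference of 0.56. Not every secreted product followed. Ang2, an angiogenin, had a log2 difference of −0.83, the lowest of the 19 measured. Retnlb, a secreted resistin-like goblet product not above background in the second EGFP-only channel, read 375 and 218 in double-positive and tdTomato-only cells, a direct Cy3 log2 difference of −0.89. Spink4 and Itln1 were at the ceiling in both Cy3 channels and gave no difference.

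**Figure D2:**
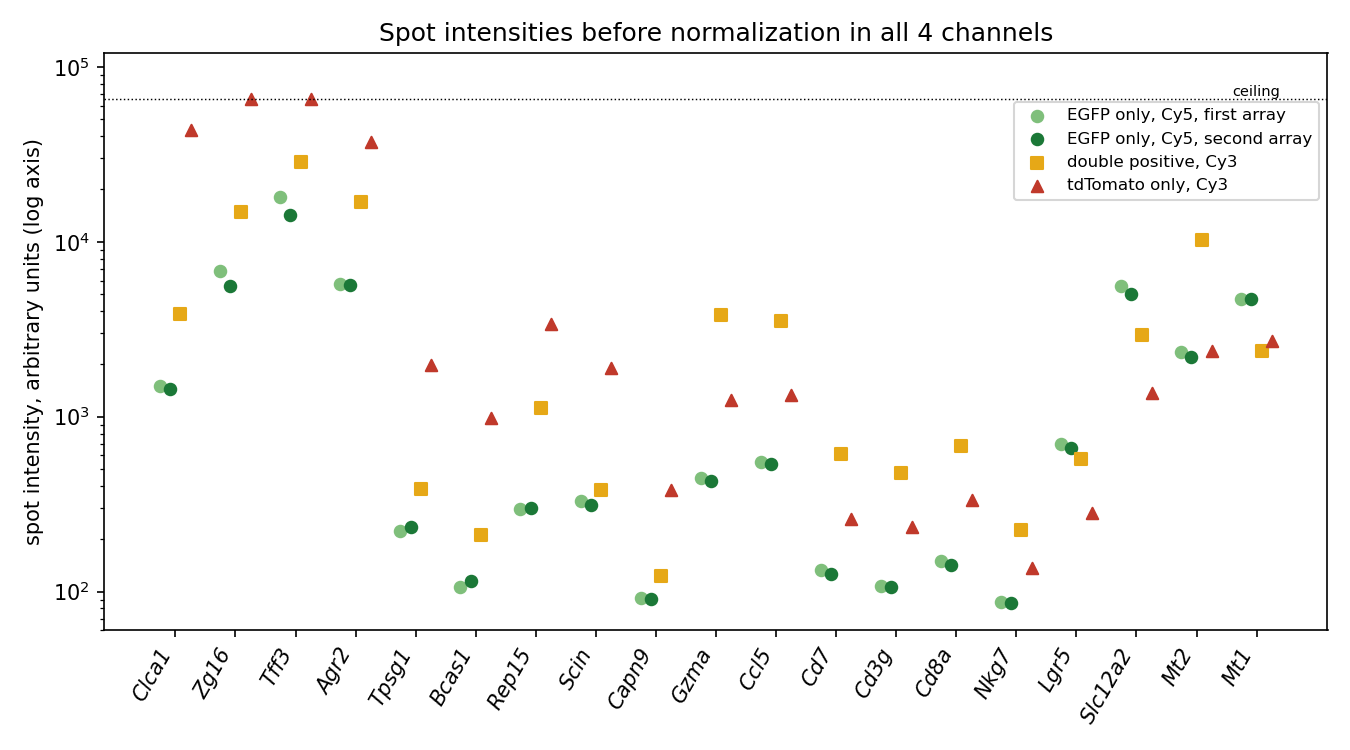
Spot intensity (log axis, arbitrary units, before normalization) of 19 genes in the 4 channels, 1 marker per channel. The 9 goblet genes on the left are brighter in tdTomato-only than in double-positive cells, with Zg16 and Tff3 at the ceiling, and the 6 lymphocyte genes in the middle are the reverse, as are Lgr5, Slc12a2 and Mt2.

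The membrane and trafficking genes of goblet cells also lay above 0. Of 42 listed 35 were measured, 8 at least 2-fold higher, none lower and 30 above 0, with a median log2 difference of 0.40. Over all genes measured, 0.822% were at least 2-fold higher and 45.7% were above 0. S100a6, a calcium-binding protein, had the largest value, with intensities of 393 and 5213 in double-positive and tdTomato-only cells and a log2 difference of 3.70. Scin, an actin-severing protein involved in granule release, read 380 and 1889, with a log2 difference of 2.48. Bcas1 read 211 and 988, with a log2 difference of 2.34. In double-positive cells these 3 genes stood 1.22, 0.67 and 1.34 above EGFP-only cells on the log2 scale, and in tdTomato-only cells 4.92, 3.15 and 3.68.

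Capn9, a calpain of mucus-producing epithelia, had a log2 difference of 2.00 and Rep15, a Rab15 effector, 1.58. Sh3bgrl3 followed at 1.25, Hepacam2 at 1.09 and Rab27b, a GTPase of secretory granules, at 1.02. The last 2 dropped just under 2-fold in some settings, to 0.99 and 0.97, as when the Cy3 channels were compared without Cy5. Ern2, the goblet cell paralogue of the stress sensor Ire1, had 0.90, and Gcnt3, which branches mucin sugar chains, 0.92. The lowest members were Tmem176a at −0.51 and Tmem176b at −0.39. Mucin and surface glycosylation genes as a list stood nearer to all genes (40 measured, median log2 difference 0.10). Its 1 member past 2-fold was Chst4, a sulfotransferase that acts on mucin-type sugars, with intensities of 160 and 585 and a log2 difference of 2.16.

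General secretion genes differed by list. For 62 measured genes of endoplasmic reticulum folding and secretion the median log2 difference was −0.03, and Agr2 was the 1 member past 2-fold. Hspa5, the chaperone BiP, had a log2 difference of −0.15, and Dnajb9, an inducible co-chaperone, −0.76. Xbp1, the transcription factor of the secretory stress response, had 0.18. Rab, SNARE and exocytosis genes had a median of 0.12, with 36 of 44 above 0 (45.7% of all genes were). Rab27b was the 1 past 2-fold.

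Kallikreins lay close together on the higher side. These are serine proteases encoded side by side in the genome, and all but Klk1 were picked out after its values were seen. Of 9 measured members of the kallikrein 1 family, 8 were at least 2-fold higher, with log2 differences from 1.55 for Klk1b26 to 1.70 for Klk1b11, and Klk1 at 1.55. Klk1b22 stood apart at −0.01. The brightest, the pseudogene Klk1b7-ps, read 1370 in double-positive and 4491 in tdTomato-only cells (intensity). These genes are near-identical in sequence, so probes can share transcripts and the 8 values cannot be taken as 8 separate genes. The count can therefore not be set against the 0.822% of all genes that were at least 2-fold higher.

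The measured gene with the largest excess belonged to no list. Smarcd3, a subunit of the SWI/SNF chromatin remodelling complex, read 395 in double-positive and 5191 in tdTomato-only cells, with 379 and 427 in EGFP-only cells (intensity). Its log2 ratio to EGFP-only cells was 0.53 and 4.24, and the log2 difference of 3.71 was 13.1-fold. Gsta4, a glutathione transferase that clears lipid peroxidation products, read 438 and 2502, with a log2 difference of 2.56. The extracellular matrix gene Abi3bp had 2.40 and Dusp9, a phosphatase of MAP kinases, 2.37. Odf2l and Tedc2, both genes of centrioles, had 2.20 and 2.20. Stat4, a transcription factor of cytokine signalling, had 2.19 and the annexin Anxa3 2.13. These 8 genes had double-positive log2 ratios to EGFP-only cells between −0.47 (Odf2l) and 0.53 (Smarcd3).

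**Figure D3:**
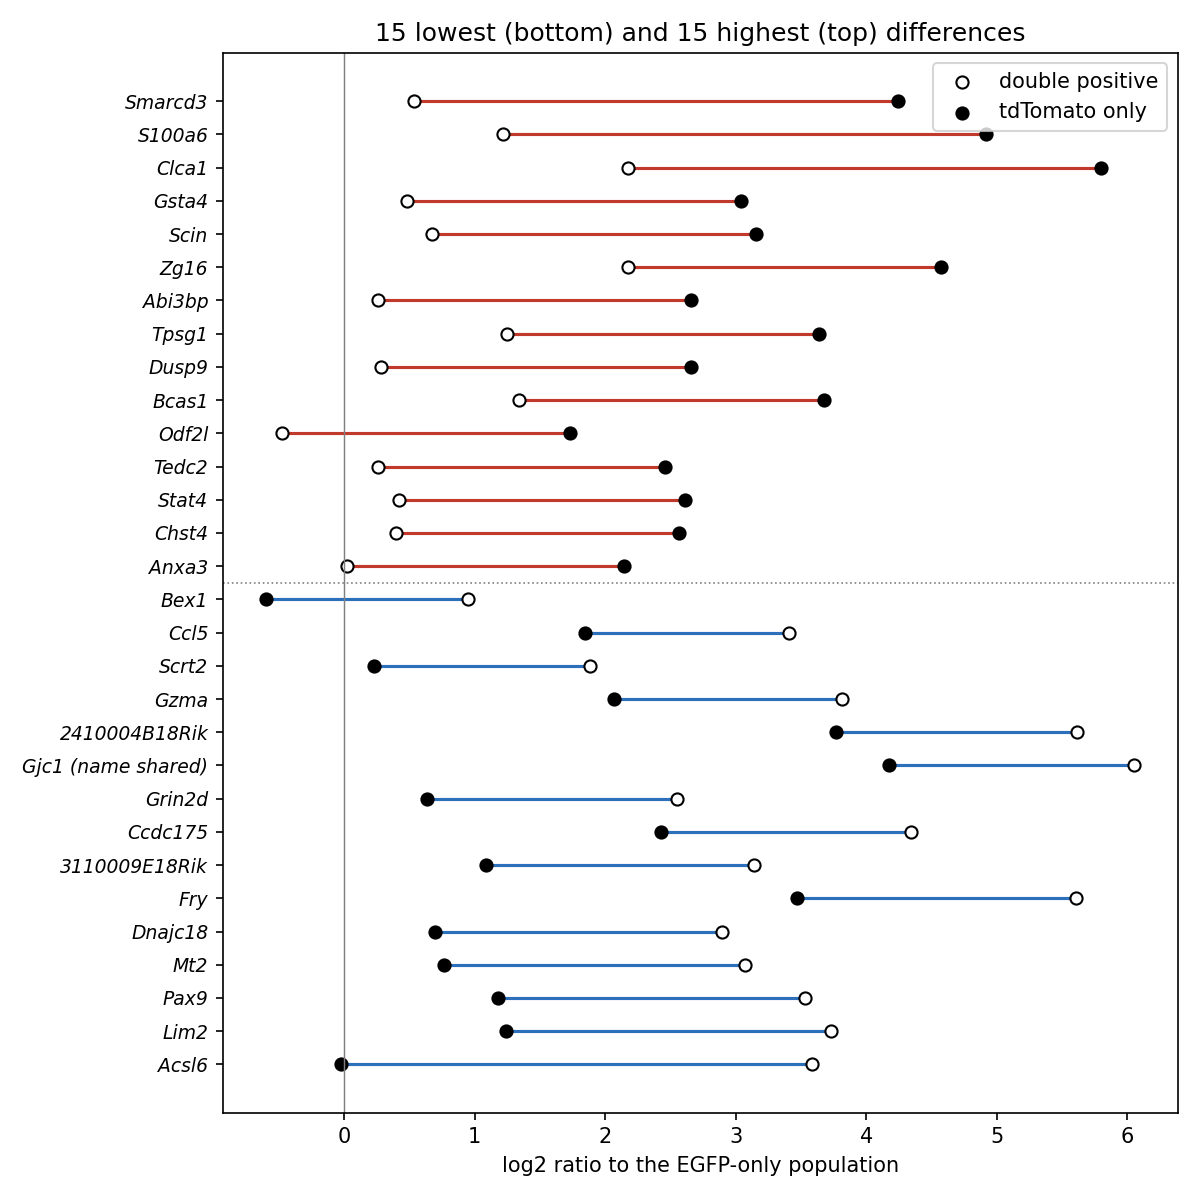
Log2 ratio to the EGFP-only population (horizontal axis) of the 15 genes with the highest and the 15 with the lowest difference, 1 row per gene, open circles for double positive and filled circles for tdTomato only. The filled circle lies right of the open one for the 15 highest genes and left of it for the 15 lowest, by definition. Among the lowest genes the open circle lies farthest left for Bex1, at 0.95.

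Among secretory transcription factors, Klf4 was the 1 of 18 measured members past 2-fold. Klf4, needed for goblet cell maturation and also present in surface enterocytes, read 1716 and 3741 in double-positive and tdTomato-only cells (intensity), with a log2 difference of 1.15. Spdef, which drives goblet and Paneth maturation, was far above EGFP-only cells in both populations, at log2 ratios of 2.53 and 3.29, and its log2 difference was 0.75. Gfi1, a transcriptional repressor that acts in favour of the goblet and Paneth branch, differed less, at 0.15. Foxa1 lay on the other side at −0.53. The endocrine progenitor factor Neurog3 had a log2 difference of 0.53, with both populations below EGFP-only cells (log2 ratios −1.55 and −1.02).

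Paneth cell genes were far above EGFP-only cells in both populations and lay mostly below 0 in the difference. Paneth cells sit at the crypt base and secrete antimicrobial peptides and stem cell niche signals. Of 38 listed genes 22 were on the array and 16 measured. None passed 2-fold in either direction, 15 of 16 were below 0 (54.3% of all genes were), and the median log2 difference was −0.29. Their median log2 ratio to EGFP-only cells was 4.12 in double-positive and 4.07 in tdTomato-only cells. Reg3g, an antibacterial lectin, read 29539 and 16789 (intensity), with a log2 difference of −0.99 that was −0.40 under quantile normalization. Ang5, an angiogenin, read 31224 and 21526, with −0.82. Wnt3, a niche ligand, had −0.48.

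Saturation limits the Paneth group. Mmp7, the protease that activates defensins, was at the ceiling in double-positive cells and read 61789 in tdTomato-only cells, so its log2 difference of −0.30 understates the gap. The 5 listed genes Ang4, Defa5, Itln1, Mptx1 and Pla2g2a were at the ceiling in both Cy3 channels and have no difference here. The same held for Spink4 of the goblet list and for Defcr3, a defensin symbol left as annotated and so not matched to the Paneth list. Each of these 7 read between 7092 and 18579 in the EGFP-only channels (intensity).

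Enteroendocrine and tuft cell genes lay mostly above 0, by small amounts. Of 29 measured hormone and granule genes 23 were above 0 (45.7% of all genes were), with a median log2 difference of 0.18. Cck, the hormone cholecystokinin, was the 1 member past 2-fold, with intensities of 390 and 776 and a log2 difference of 1.09 (0.99 in its lowest setting). Its log2 ratio to EGFP-only cells was −1.18 in double-positive and −0.09 in tdTomato-only cells, so the double-positive population was the one that stood apart. Secretin (Sct) had a log2 difference of 0.99, Gip 0.91 and ghrelin (Ghrl) 0.91. Scg3, a granule protein, was lowest at −0.69. Of 23 measured tuft cell genes 19 were above 0, with a median of 0.07, and none passed 2-fold. Avil, the actin-binding protein advillin, had 0.68 and Dclk1, a microtubule kinase, was dim at 96.1 and 106 (intensity).

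Absorptive genes lay mostly above 0, by less than 2-fold. Enterocytes take up nutrients through a brush border and export lipid in chylomicrons. Of 41 measured villus enterocyte genes 36 were above 0 (45.7% of all genes were), with a median log2 difference of 0.32. Klf4 was the 1 member past 2-fold. Among 32 measured genes of lipid transport 28 were above 0, none past 2-fold, with a median of 0.31. Fabp2, the intestinal fatty acid binding protein, read 7526 and 18169 in double-positive and tdTomato-only cells (intensity), with log2 ratios to EGFP-only cells of 1.87 and 2.85 and a log2 difference of 0.98. Apoa4, an apolipoprotein of chylomicrons, read 2075 and 4404, with log2 ratios of 2.38 and 3.34 and a difference of 0.96. The order was the same for both genes, EGFP only lowest and tdTomato only highest. Ada, adenosine deaminase, was the lowest villus gene at −0.58, and the fatty acid transporter Slc27a2 the lowest lipid gene at −0.67.

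Early enterocyte genes had the highest list median, 0.59 on the log2 scale over 20 measured genes. Of these 20, 4 were at least 2-fold higher (0.822% of all genes were). These were Zg16 and Lypd8 (1.08), both of which the list shares with goblet cells, Reg1 (1.14) and Il18 (1.03, and 0.97 in its lowest setting). Reg1, a regenerating islet-derived lectin, read 1472 and 3156 (intensity). The list also held Reg3g at −0.99 and the inflammasome sensor Nlrp6 at −0.68, so its members lay on both sides of 0.

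Enzymes that handle foreign compounds showed a like pattern. Of 42 measured genes 36 were above 0 (45.7% of all genes were), with a median log2 difference of 0.37. None was at least 2-fold lower, and 2 were at least 2-fold higher (0.822% of all genes were). These were Gsta4 and Cyp2s1, a cytochrome P450 (log2 difference 1.16). The drug-metabolizing Cyp3a11 had 0.94, the retinal dehydrogenase Aldh1a1 0.94 and Cyp3a13 0.81. Within the alpha class of glutathione transferases the members diverged. Gsta2 had a log2 difference of 1.35 (intensity 366 and 938), while Gsta3 had −0.13 (146 and 146).

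Calcium-binding and lectin families outside the goblet list, most of them chosen after their values were seen, also held higher genes. S100a13 had a log2 difference of 1.18 and S100a10, the partner of annexin A2, 0.97. Annexin genes Anxa3 and Anxa2 had 2.13 and 1.11, and all 6 measured annexins were above 0. Galectins, which bind galactose-containing sugars, had 3 of 8 measured members past 2-fold, Lgals2 at 1.22, Lgals3 at 1.11 (0.997 in its lowest setting) and Lgals4 at 1.11. Over all genes measured, 0.822% were at least 2-fold higher and 45.7% were above 0. The gasdermins, pore-forming proteins of cell death, lay between 0.54 (Gsdmc4) and 1.05 (Gsdme) for 6 measured genes. Of the gelsolin family, Gsn joined Scin at 1.67, with Svil at −0.19. Tmsb10, which binds actin monomers, had 1.10 and was the 1 of 24 brush border and cytoskeleton genes past 2-fold.

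Interferon response genes lay mostly above 0. Interferons induce antiviral effectors and antigen presentation genes, often through the factor complex ISGF3 at a promoter motif, the interferon-stimulated response element. Of 35 measured genes 31 were above 0 (45.7% of all genes were), with a median log2 difference of 0.24. Of these 35, 2 were at least 2-fold higher (0.822% of all genes were). A further member, Ido1, which breaks down tryptophan, was not above background in the first EGFP-only channel and is not among the 35. It read 116 in double-positive and 1775 in tdTomato-only cells, a direct Cy3 log2 difference of 4.21. Oasl1, an oligoadenylate synthetase-like protein, read 235 in double-positive and 725 in tdTomato-only cells (intensity), with log2 ratios to EGFP-only cells of 1.00 and 2.78 and a log2 difference of 1.78. Oas2, an oligoadenylate synthetase, read 95.7 and 187, with 1.31. The interferon regulatory factor Irf7 had 0.99, the guanylate-binding protein Gbp2 0.94 and the synthetase Oas1a 0.92. Irf8, a factor of immune cells, was the lowest at −0.36.

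As 31 of 35 lay on one side, the promoters of the list were searched for the core of that element, GAAANNGAAA, on both strands, in the 250 bases before each start in RefSeq (GRCm38.p6). A match was found in 9 of 27 windows of 24 measured members (33.3%), against 978 of 32851 windows of all genes (2.98%). The list was drawn up as interferon-induced genes, so a high share goes with how it was chosen. Among all genes past 2-fold a match was found in 4 of 86 windows of the higher genes (4.65%) and 3 of 28 windows of the lower ones (10.7%). Oas1a and Gbp2, with log2 differences of 0.92 and 0.94, are shown because their windows hold a match. The Oas1a window is chr5:120907526-120907775 on the minus strand, with 2 overlapping matches 4 to 20 bases before the start. The Gbp2 window is chr3:142620413-142620662 on the plus strand, with 1 match 49 to 59 bases before the start. Both read 5′ to 3′, and capitals mark the matches.
Oas1a: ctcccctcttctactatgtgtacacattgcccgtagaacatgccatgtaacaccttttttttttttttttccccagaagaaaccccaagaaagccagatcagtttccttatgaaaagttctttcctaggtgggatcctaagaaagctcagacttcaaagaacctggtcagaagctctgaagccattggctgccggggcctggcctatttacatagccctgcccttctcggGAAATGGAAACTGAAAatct
Gbp2: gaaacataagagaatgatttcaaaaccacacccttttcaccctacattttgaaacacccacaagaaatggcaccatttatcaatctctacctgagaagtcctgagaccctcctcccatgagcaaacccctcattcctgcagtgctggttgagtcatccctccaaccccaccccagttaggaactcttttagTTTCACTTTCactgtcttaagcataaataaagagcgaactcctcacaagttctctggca
The windows of Oasl1, Irf7 and Ifi35 held no match, nor did that of Samd9l, a higher gene outside the list, which says only that these letters are not in those 250 bases.

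Genes of DNA replication lay below 0 throughout. All 41 measured genes were below 0 (54.3% of all genes were), with a median log2 difference of −0.36, though none reached 2-fold. Uhrf1, which maintains DNA methylation through replication, read 860 and 465 in double-positive and tdTomato-only cells (intensity). Its log2 ratio to EGFP-only cells was −0.06 and −0.92, and the log2 difference was −0.86. The helicase genes Mcm4 and Mcm5 had −0.79 and −0.78, and the methyltransferase Dnmt1 −0.77. For these 4 genes the log2 ratio to EGFP-only cells lay between −0.54 and −0.06 in double-positive and between −1.32 and −0.92 in tdTomato-only cells. Mitosis genes followed with 38 of 44 below 0 and a median of −0.24, led by Stmn1 (−0.78), which destabilizes microtubules, and Top2a (−0.70), the mitotic topoisomerase.

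Most ribosome genes lay below 0, by less than 2-fold. Of 49 measured ribosome biogenesis genes 45 were below 0 (54.3% of all genes were), with a median log2 difference of −0.21. Ncl, the nucleolar protein nucleolin, had −0.47. Of 55 ribosomal protein genes 49 were below 0, ranging from −0.70 (Rps18) to 0.30 (Rps15a) with a median of −0.23, which shrank to −0.06 under quantile normalization. Cell cycle inhibitors had a median of 0.07. Among them Gadd45b, a stress-induced gene, had 0.94 and Cdkn1a, the inhibitor p21, 0.78.

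**Figure D4:**
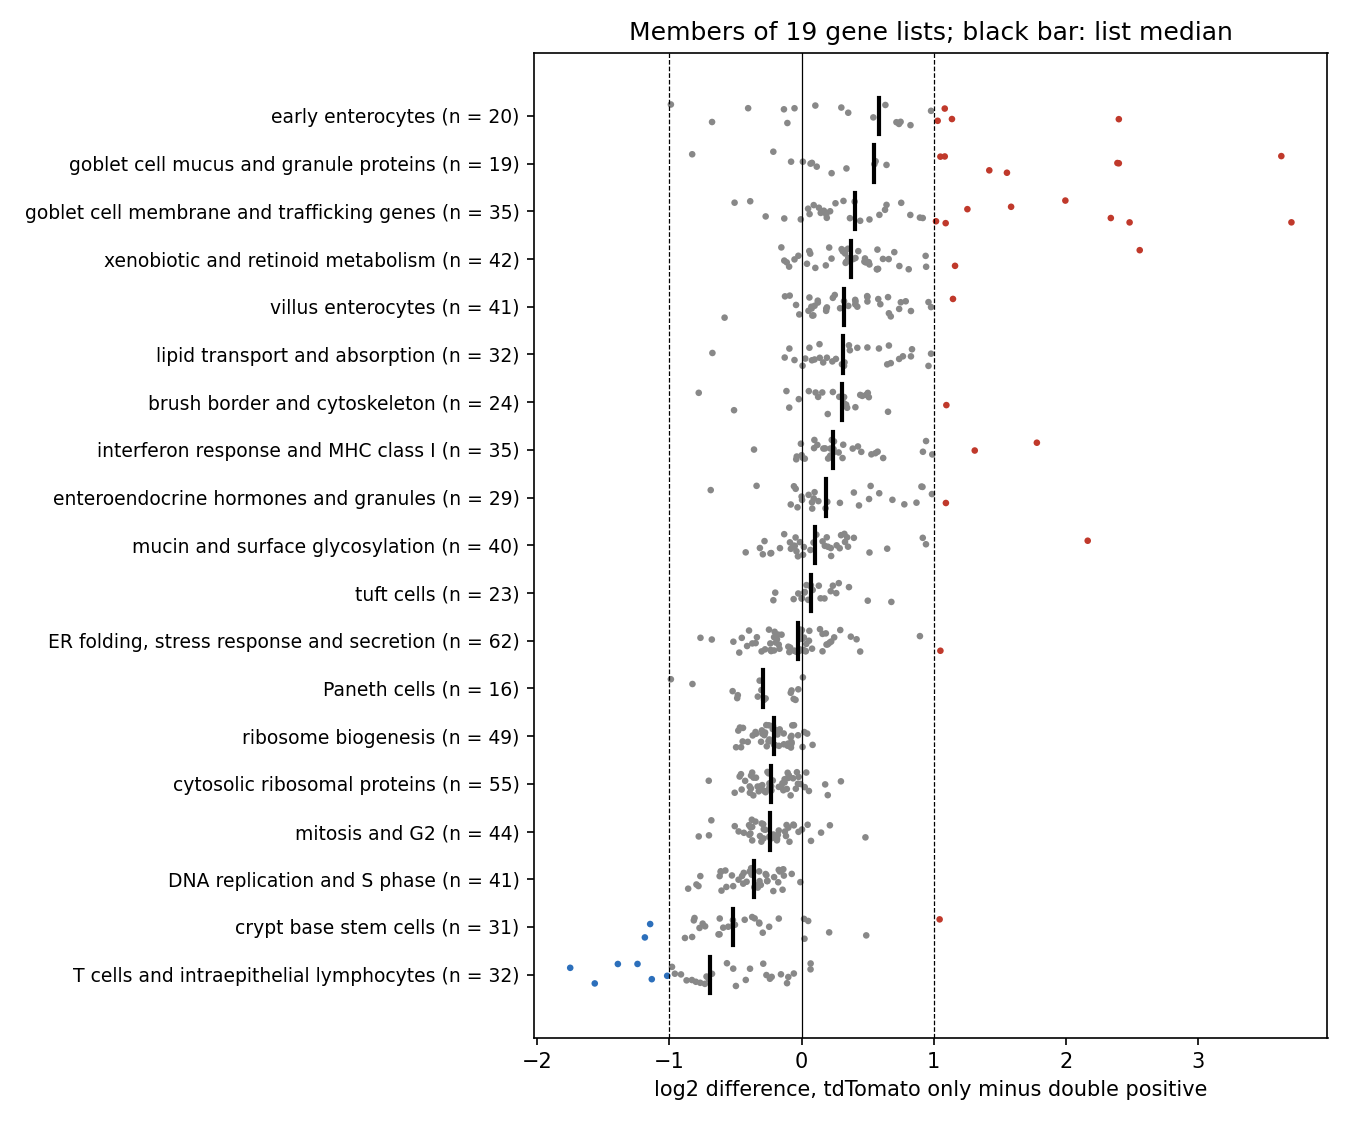
Log2 difference (tdTomato only minus double positive) of each measured member of 19 gene lists, 1 point per gene, with a black bar at the list median and dashed lines at 2-fold. Points past 2-fold are red (higher) or blue (lower). Medians run from −0.69 for the T cell and intraepithelial lymphocyte list to 0.59 for early enterocytes.

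Signalling lists were centred near all genes, with a few members set apart. Wnt receptors, feedback genes and targets had 20 of 29 below 0 (54.3% of all genes were) and a median log2 difference of −0.18. Lgr5 and Ephb3 were past 2-fold in opposite directions. Myc, a Wnt target and growth regulator, had −0.61. The Notch list was centred at −0.03, yet the receptor Notch1 read 282 and 173 in double-positive and tdTomato-only cells (intensity), with a log2 difference of −0.82. Hes1, a Notch target, had −0.28. In the BMP list the Id genes, direct BMP targets, lay at the top, with Id4 at 0.90, Id3 at 0.75 and Id1 at 0.44, and the co-receptor Rgmb lay at the bottom at −0.75. Lrig1, a brake on ErbB receptors and a stem cell marker, had −0.84, with a log2 ratio to EGFP-only cells of 0.10 in double-positive and −0.74 in tdTomato-only cells.

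Genes of T cells and intraepithelial lymphocytes were measured in both populations and lay mostly below 0. Intraepithelial lymphocytes lie between epithelial cells and can be carried along with them. Of 62 listed genes 53 were on the array and 32 measured, 6 at least 2-fold lower and none higher, with 30 of 32 below 0. Over all genes measured, 0.283% were at least 2-fold lower and 54.3% were below 0. The median log2 difference was −0.69 and ranged from −1.20 to −0.33 across the settings. The summed Cy3 intensity of the measured members was 17507 in double-positive and 9623 in tdTomato-only cells.

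Gzma, the cytotoxic protease granzyme A, read 3815 in double-positive and 1241 in tdTomato-only cells (intensity), with log2 ratios to EGFP-only cells of 3.82 and 2.07 and a log2 difference of −1.75. The chemokine Ccl5 read 3524 and 1331, with ratios of 3.41 and 1.85 and a difference of −1.56. For both genes the order was double positive, tdTomato only, EGFP only. Cd7 had a log2 difference of −1.39, the T cell receptor component Cd3g −1.24, the co-receptor Cd8a −1.13 and the granule protein Nkg7 −1.02. Nkg7 did not reach 2-fold in every setting (−0.87 at its smallest). Ptprc, the leukocyte antigen CD45, read 204 and 133, with −0.87.

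Some defining lymphocyte markers were at or near background. Cd3e, Itga4 and Klrk1 were not above background in either Cy3 channel. A further 13 listed genes were above background in both Cy3 channels but not in at least 1 EGFP-only channel, and 11 of them were below 0 when the Cy3 channels were compared directly. Gzmk and Cxcr6 were above background in double-positive cells alone, at intensities of 94.8 and 94.1. For 14 measured myeloid and mast cell genes the median was −0.11, with Fcer1g, a signalling chain of Fc receptors and cytotoxic cells, past 2-fold at −1.12 (−0.95 without Cy5). Genes of fibroblasts, muscle and endothelium had a median of −0.04, and B and plasma cell genes −0.07. Of the 32 lower genes 7 were in the lymphocyte or myeloid lists, and of the 93 higher genes none. These lists held 32 and 14 of the 11318 genes measured. Rgs1 (−1.24) and Srgn (−1.02, and −0.89 in the setting nearest 0), lower genes outside the lists and named after their values were seen, are known from activated leukocytes. The part of lymphocyte RNA in the other differences was not tested.

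Most of the lowest genes were in none of the lymphocyte lists. Acsl6, a long-chain acyl-CoA synthetase, read 764 in double-positive cells and 92.8 in tdTomato-only cells, with 97.4 and 82.8 in EGFP-only cells (intensity). Its tdTomato-only value was close to the background limit of 85.4, and its log2 difference of −3.61 became −5.17 with the blank mean subtracted. Lim2, a symbol that now names a lens membrane protein and formerly named Lhx2 and Lhx5, read 830 and 181, with a log2 difference of −2.49. Pax9, a paired-box transcription factor, was bright, at 23870 in double-positive and 5322 in tdTomato-only cells, with −2.36 (−1.80 under quantile normalization). Both descendants exceeded EGFP-only cells for Pax9, at log2 ratios of 3.53 and 1.18. The same held for Fry, which acts in cell polarity and division, at 5.60 and 3.47. Fry read 8946 and 1714 (intensity), with a log2 difference of −2.13.

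Further genes at this end were Dnajc18, a co-chaperone (−2.20), Grin2d, a glutamate receptor subunit (−1.92), Scrt2, a zinc finger repressor (−1.66), Ccdc175 (−1.92), 3110009E18Rik (−2.06) and 2410004B18Rik (−1.84). The last shrank to −1.06 under quantile normalization. A probe annotated Gjc1, a symbol shared with an older name of Gjd3, had a log2 difference of −1.88 and shrank to −0.79 under quantile normalization. Probes whose older symbols lead to the current Gjc1 had 0.23. Bex1 and Bex4, small adaptor proteins of the X chromosome, had −1.54 and −1.31, with Bex2 at 0.18. Bex1 is also an older name of Bex2 and Bex4 of Bex1, so which family members these probes measure is uncertain. Symbols of 10 genes past 2-fold are also older names of other genes, Reg1, Klk1 and Ccr4 among them, and are taken at their current meaning.

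Mt2, one of the metallothioneins that bind zinc and copper, stood apart from its close paralogue. It read 10275 in double-positive and 2357 in tdTomato-only cells (intensity), at log2 ratios to EGFP-only cells of 3.07 and 0.76, and the log2 difference was −2.31, or 4.95-fold lower. Mt1, its close paralogue, read 2381 and 2691, at ratios of −0.13 and −0.08, with a log2 difference of 0.05, and Mt3 had 0.14. Of 3 measured metallothioneins Mt2 was the 1 past 2-fold. The symbol Mt2 is also an older name of a melatonin receptor gene, Mtnr1b.

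Metallothionein promoters carry metal response elements, to which the zinc-sensing factor Mtf1 binds. A loose form of the core, TGCNCNC, was searched on both strands in the same windows. The Mt2 window is shown because it is dense in this form. It holds 5 matches, 43 to 223 bases before the start. Of 32851 windows of all genes 113 (0.344%) held 5 or more, and 44.4% held at least 1. The interferon core had no match in the windows of the 3 metallothioneins. The window is chr8:94172368-94172617 on the plus strand in GRCm38.p6, read 5′ to 3′ with the matches in capitals.
Mt2: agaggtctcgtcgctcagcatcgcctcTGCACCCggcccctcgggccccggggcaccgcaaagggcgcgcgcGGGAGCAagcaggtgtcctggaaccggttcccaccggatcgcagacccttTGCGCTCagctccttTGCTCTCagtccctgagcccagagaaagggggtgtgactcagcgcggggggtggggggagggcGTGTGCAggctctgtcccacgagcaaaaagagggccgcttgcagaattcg
A match describes the letters and is not a measured site.

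Several lists sat close to all genes. Respiratory chain genes had a median log2 difference of 0.06 over 64 genes, fatty acid oxidation 0.10, cholesterol synthesis 0.16 and junctions −0.02. Immediate early genes, which respond to cell dissociation, had 0.06 over 29 genes, with Klf4 the 1 past 2-fold. Within glycolysis (median 0.10) the enzymes Pfkp, Ldha and Pkm lay highest, at 0.79, 0.78 and 0.69. Regional markers of the intestine were centred at −0.01, with Hoxb6 at −0.78 and Onecut2 at 0.77. Intestinal transporters and channels had a median of 0.06 over 44 genes, with Slc12a2 the 1 past 2-fold, and genes of apoptosis and shedding 0.17 over 26, led by Casp1 (0.63). Across the settings, 10 of the 45 list medians lay on both sides of 0. Immediate early genes (−0.02 to 0.11), junctions (−0.09 to 0.02) and cell cycle inhibitors (−0.01 to 0.09) were among them, as were the BMP and endoplasmic reticulum lists.

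**Figure D5:**
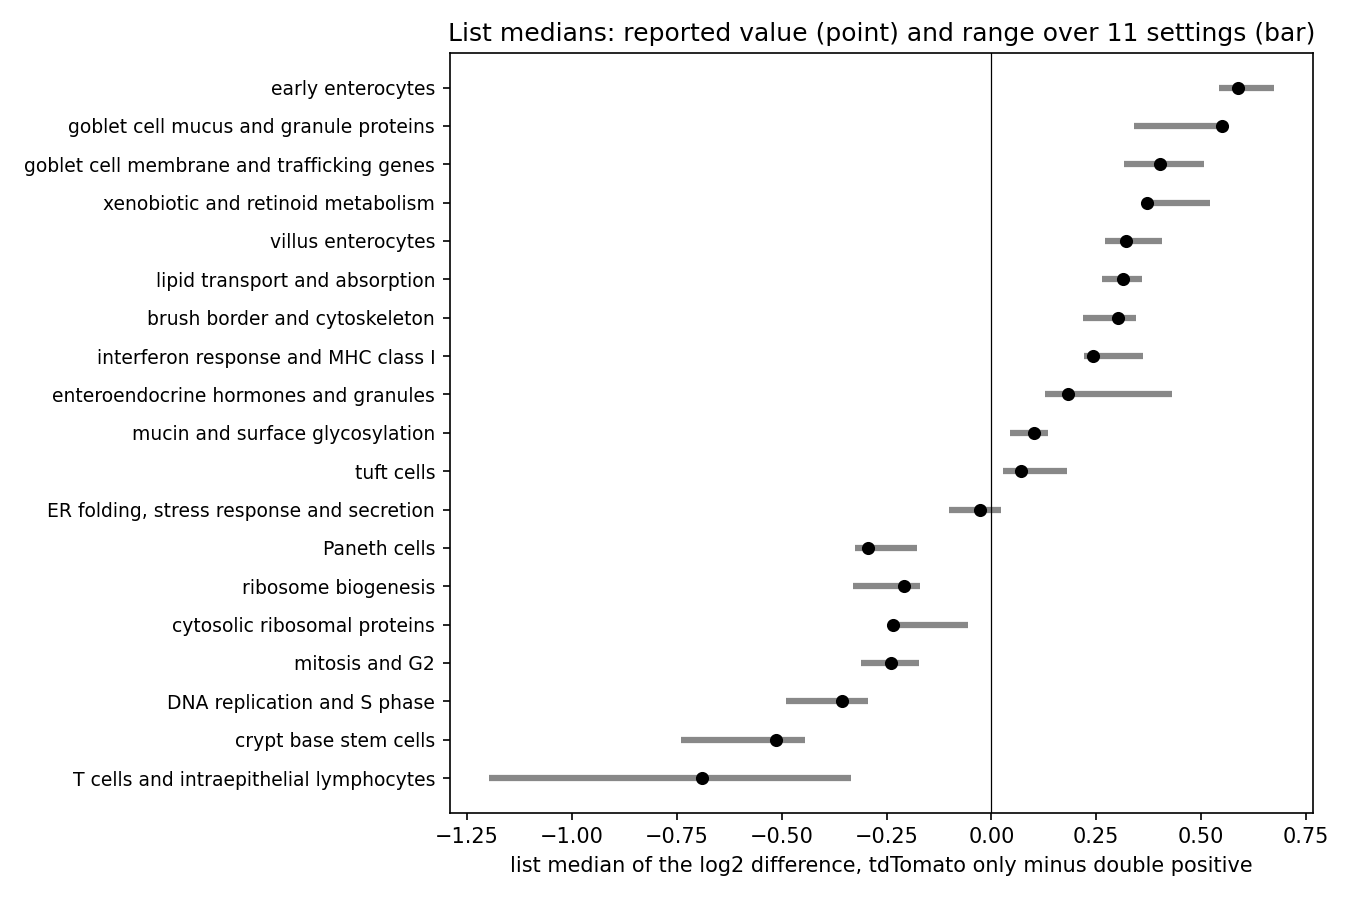
Median log2 difference (tdTomato only minus double positive) of 19 gene lists, with the reported value as a point and the range over 11 settings, the reported one included, as a bar. No bar crosses 0 except that of endoplasmic reticulum folding and secretion, and the lymphocyte list has the widest range, from −1.20 to −0.33.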

How the data were processed

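RNA of sorted cells was hybridised to 2 two-colour Toray arrays. The deposited scanner tables hold spot intensity values per channel, per the file headers. The authors also deposited a table of log2 ratios (Cy3 over Cy5), used here as an alternative. The intensities are spot medians with no background subtracted, from scans at several gains joined by the authors, per the file headers.

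Intensities were corrected with normexp (offset 50) and normalized by loess within each array in limma 3.58.1 (R 4.3.3), and the difference of the 2 log2 ratios was taken in Python 3.11.15 with pandas 2.3.3. Control spots and 5 quality-marked probes were left out, and probes below the mean of 2736 blank spots plus 2 SD in any channel were removed. Background limits were 82.2 and 85.4 in Cy3 and 74.1 and 75.7 in Cy5. Symbols were updated through RefSeq, with 12622 current, 3947 updated, 59 ambiguous and 3 unmatched. Probes of a gene were averaged (109 genes had several, with a median range of 0.16), and 13 symbols shared between genes were kept apart. The script was tested on simulated data.

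The number of arrays limits the precision, and with 1 sample a group there is no test. The fold threshold was 2. The members, lists, motifs and families were chosen with earlier results of these data known. Genes named are Lgr5, the 15 highest and 15 lowest, and in each list the members past 2-fold, up to 4 others with the largest difference, up to 3 bounds, and saturated members. Any other gene was chosen after its values were seen. Alternatives varied background, normalization, filters, probe choice and saturation. Promoter windows come from RefSeq (GRCm38.p6), 250 bases before the start.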

Additional observations from a re-analysis of the deposited data

Results flagged for a closer look

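Of 947 genes above background in both Cy3 channels but not in at least 1 EGFP-only channel, and so outside the members, 5 differed at least 2-fold when the Cy3 channels were compared directly. Ido1, which breaks down tryptophan, read 116 in double-positive and 1775 in tdTomato-only cells (intensity), a log2 difference of 4.21, or 18.5-fold, and belongs to the interferon list. Rag2, a recombinase of lymphocyte receptors, read 84.2 and 270, a log2 difference of 1.98. Olfr1349, an olfactory receptor, read 83.6 and 150, a log2 difference of 1.01. On the lower side, 4930431F12Rik read 254 and 135, a log2 difference of −1.09, and Tcam1 read 380 and 122, a log2 difference of −1.90. These values lack the reference channel that the other differences share, and each has 1 array per population.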

How the results depend on the processing

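Under the 10 other settings tried, no result changed sign past 2-fold. The counts were 93 higher and 32 lower as reported, and moved by over 1.5 times to 204 and 161 with the blank mean subtracted, to 170 and 141 in the authors' deposited table, and to 66 lower (131 higher) with a normexp offset of 10. The other 7 settings gave 88 to 94 higher and 28 to 34 lower. The log2 difference of Lgr5 was −1.14 as reported, −1.27 with the offset of 10, −1.31 with the blank mean subtracted and −1.38 in the deposited table. Of the single genes and list medians, 124 moved by more than the repeat of the EGFP-only channel in the deposited table, 120 with the blank mean subtracted, 89 with the offset of 10, 81 without Cy5, 63 with median centring and 29 with quantile normalization, against 1 to 8 in the other settings. No paired analysis was possible because each population is 1 sample. Signal near background limits the sizes of dim genes, such as Acsl6, and the scanner ceiling those of the brightest, such as Zg16, Tff3 and Mmp7.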

Other observations

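Eph receptors and ephrins sort cells along the crypt axis by repulsion. Of 14 measured members 7 lay above 0, with a median log2 difference (tdTomato only minus double positive) of −0.02, and Ephb3 was the 1 past 2-fold. Beside Ephb3 at 1.04 and Ephb2 at 0.49, the ligands Efnb2 and Efnb1 had 0.69 and 0.41, and the receptor Ephb4 had −0.61. Among 10 measured EGF family and ErbB receptor genes the median was −0.01, with Egf at −0.62 and the ligand Btc at 0.41. Genes of reserve or regenerative stem cells had a median of −0.01 over 11 genes, with Anxa3 at 2.13 at one end and Lrig1 at −0.84 at the other. Enteroendocrine transcription factors had 0.05 over 10 genes.

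Of 25 measured chemokines and cytokines 13 lay above 0, with a median of 0.01. Il18, an epithelial cytokine of the inflammasome, had 1.03 (0.97 in its lowest setting), and the transmembrane chemokines Cxcl16 and Cx3cl1 had 0.82 and 0.76, while Ccl5, a lymphocyte product, had −1.56. MHC class II genes were measured for 5 members, 2 of them above 0, with a median of −0.36. The highest was Ifi30 at 0.28, and Ciita, their master regulator, stood at −0.55 and Cd74, the invariant chain, at −0.42. Erythroid genes were measured for 4 members, with a median of −0.32. Of 16400 named genes, the Cy3 signal exceeded background for 895 in double-positive cells alone and for 158 in tdTomato-only cells alone. The background limit was lower for double-positive cells, 82.2 against 85.4, so the 2 counts cannot be set against each other. Spp2 was counted in double-positive cells alone at intensities of 85.3 and 85.3. None of the genes in either count had a bound of 2-fold.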
